A study of Mus musculus with 6 samples.

Results

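The genes described here are the transcription factor NRF2 (Nfe2l2), its sensor Keap1, target genes of NRF2, and enzymes that handle peroxide, superoxide, glutathione and NADPH. The group was named as 33 genes, taken through probe sets annotated to 1 gene symbol only, and the probe set that was brightest on average across the 6 arrays stood for each gene. This gave 29 measured members of the 18193 genes measured in all, from 64 probe sets. Prdx1, Prdx5, Prdx6 and G6pdx had no such probe set and are not analysed here; 5 probe sets that name Prdx1 name other genes as well.

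The study compared primary mouse fibroblasts that carry a Delta9 form of Lmna, which encodes the A-type lamins of the nuclear envelope, with wild-type (WT) fibroblasts. Each group had 3 samples, described as independent and as derived from siblings, hybridised to 1 Affymetrix array apiece and all of the strain C57bl6X129S3/J. Both groups were lines at passage 3 that had been kept without serum for 72 hours. Zygosity and the number of animals behind the lines are not stated in the labels, and a p-value here therefore reflects spread among the 6 cultures, which may in part be technical. The cells are adult by their labels and post-natal by the design text.

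NRF2 is held in the cytoplasm and sent to degradation by KEAP1, whose cysteines react with oxidants and electrophiles. When KEAP1 is modified, NRF2 accumulates, enters the nucleus, pairs with a small MAF protein and binds antioxidant response elements near genes for quinone reduction, heme breakdown, glutathione synthesis, the thioredoxin system and NADPH supply. The superoxide dismutases, catalase, glutathione peroxidases and peroxiredoxins then remove superoxide and peroxides. Of these, the glutathione peroxidases and peroxiredoxins draw their reducing power from glutathione and thioredoxin and, behind these, from NADPH of the pentose phosphate pathway. Much of NRF2's own control is by protein stability, which an array of RNA does not read.

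The response element is shown here because it is the sequence through which NRF2 acts on these genes. Windows from 250 bases before to 50 bases after the annotated starts (RefSeq, GRCm38.p6) were available for 27 of the 33 named genes, as 35 windows. They were searched on both strands for the core of the element, TGACNNNGC, where N is any base. It was found in 9 of the 35 windows (25.7%) and in 12.4% of all 32851 windows of the same length. The longer form, in which an A follows the core, was in 2 member windows and in 3.04% of all windows. The 7 measured members with the core in a window were the following, written along the strand that reads TGACNNNGC, with those 9 bases in capitals and 10 bases on each side.

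Nfe2l2: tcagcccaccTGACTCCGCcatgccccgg
Srxn1: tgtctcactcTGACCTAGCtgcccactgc
Gclm: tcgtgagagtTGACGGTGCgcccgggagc
Pgd: atttcagagcTGACATTGCactgatcgga
Mgst1: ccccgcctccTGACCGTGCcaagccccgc
Txnrd1: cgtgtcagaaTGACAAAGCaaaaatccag
Sod1: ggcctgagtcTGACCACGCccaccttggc

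All 7 stretches read on the minus strand of GRCm38.p6. The Nfe2l2 stretch is at chr2:75704885-75704913, with its core 240 bases before the start in the direction of the gene. Those of Gclm (chr3:122245413-122245441), Txnrd1 (chr10:82859104-82859132), Mgst1 (chr6:138140461-138140489) and Sod1 (chr16:90220696-90220724) lie 134, 92, 56 and 56 bases before the start, in the direction opposite to the gene. The cores of Srxn1 (stretch at chr2:152105542-152105570) and Pgd (stretch at chr4:149166061-149166089) lie within the first 50 transcribed bases, and the Pgd stretch begins before the start. Pgd and Txnrd1 hold the longer form, and none of the 7 overlaps an AP-1 site (TGACTCA). A match of letters is a description and not a binding site, and response elements can also lie outside these windows.

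Values are log2 probe set summaries. Differences are Delta9 minus WT with the moderated standard error (SE), from a linear model fitted over all 18193 genes with limma, and adjusted p-values are by Benjamini-Hochberg over all of them. A gene was called at an adjusted p under 0.05.

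All per-sample values are listed in the order of replicates 1, 2 and 3. The brightest Lmna probe set, as a check of the labels, read 7.07, 6.95 and 6.11 in Delta9 against 8.35, 8.89 and 8.78 in WT, a difference of -1.96 (SE 0.28, adjusted p 0.0899). Of the 4 other Lmna probe sets, fitted over all probe sets, 1 was called at -3.42 (limma; SE 0.22, adjusted p 0.00421). The others differed by -2.05, -0.54 and 0.22. Those at -0.54 and 0.22 were dim, at 3.11 and 3.44 in Delta9 and 3.65 and 3.23 in WT. Which of the Lmna probe sets lie within the altered stretch of Lmna is not known here, so they check the labels only in part. Fibroblast markers were bright on every array, but all 10 were lower in Delta9 (median difference -0.24), with mean levels of 10.63 to 10.84 in Delta9 and 11.04 to 11.18 in WT. All 18 macrophage markers were higher in Delta9 (median difference 1.08), with mean levels from 9.69 to 10.26 in Delta9 and from 7.6 to 9.75 in WT, so these markers were present in both groups and lowest in WT replicate 3. Itgam was the dimmest of the 18, at 2.81 to 4.75. Poly-A spike-in RNA averaged 5.20 on the array of Delta9 replicate 3 and 4.85 on that of WT replicate 1, while the remaining 4 arrays read 5.64 to 6.10. Signs of RNA quality varied too: the signal of 18S ribosomal RNA was 9.37, 9.51 and 10.39 in Delta9 and 10.08, 9.21 and 7.86 in WT, and the Gapdh probe sets differed between the 3′ and 5′ ends by 0.25, 0.23 and 0.57 in Delta9 and by 0.49 to 0.57 in WT. Between the same ends, the beta-actin probe sets differed by 0.68, 0.51 and 0.84 in Delta9 and by 0.86, 0.82 and 1.41 in WT, most in WT replicate 3. In bulk RNA, fewer cells of a type and less RNA per cell cannot be told apart.

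The antioxidant genes had no common direction in Delta9 against WT, and the few members that stood apart did so both ways. Taldo1 of the pentose phosphate pathway and the heme oxygenase Hmox1 were higher in 3 of 3 Delta9 samples, and the extracellular superoxide dismutase Sod3 was lower in 3 of 3. Their differences were 0.70, 0.81 and -1.18 log2, or 1.63-fold, 1.75-fold and 2.27-fold. None of the 29 members passed the adjusted threshold (limma; lowest adjusted p 0.161, for Taldo1), where 0.0605% of all genes did. At an unadjusted p under 0.05 there were 6 members, or 20.7%, against 10.6% of all genes. The 6 were Taldo1, Hmox1 and Txn1 on the higher side, where the share of all genes was 4.54%, and Sod3, Slc7a11 and Gsta4 on the lower side, where it was 6.06%.

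The groups did not overlap for 7 members (24.1%), against 17.3% of all genes. Delta9 lay above WT for 4, Hmox1, Gpx4, Txn1 and Taldo1 (all genes 7.27%), and below it for 3, Slc7a11, Sod3 and Gsta4 (all genes 9.99%). Over the 29 members, 16 had higher and 13 lower means in Delta9, where 46.8% of all genes were higher and 53.2% lower, and the median difference was 0.02, against -0.01 over all genes. The difference was over 0.5 log2 in size for 5 members (17.2%; all genes 8.30%): Sod3, Gsta4, Gclc, Taldo1 and Hmox1. For 12 members (41.4%; all genes 50.1%) the whole 95% confidence interval lay within 0.5 log2 of no difference.

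**Figure D1:**
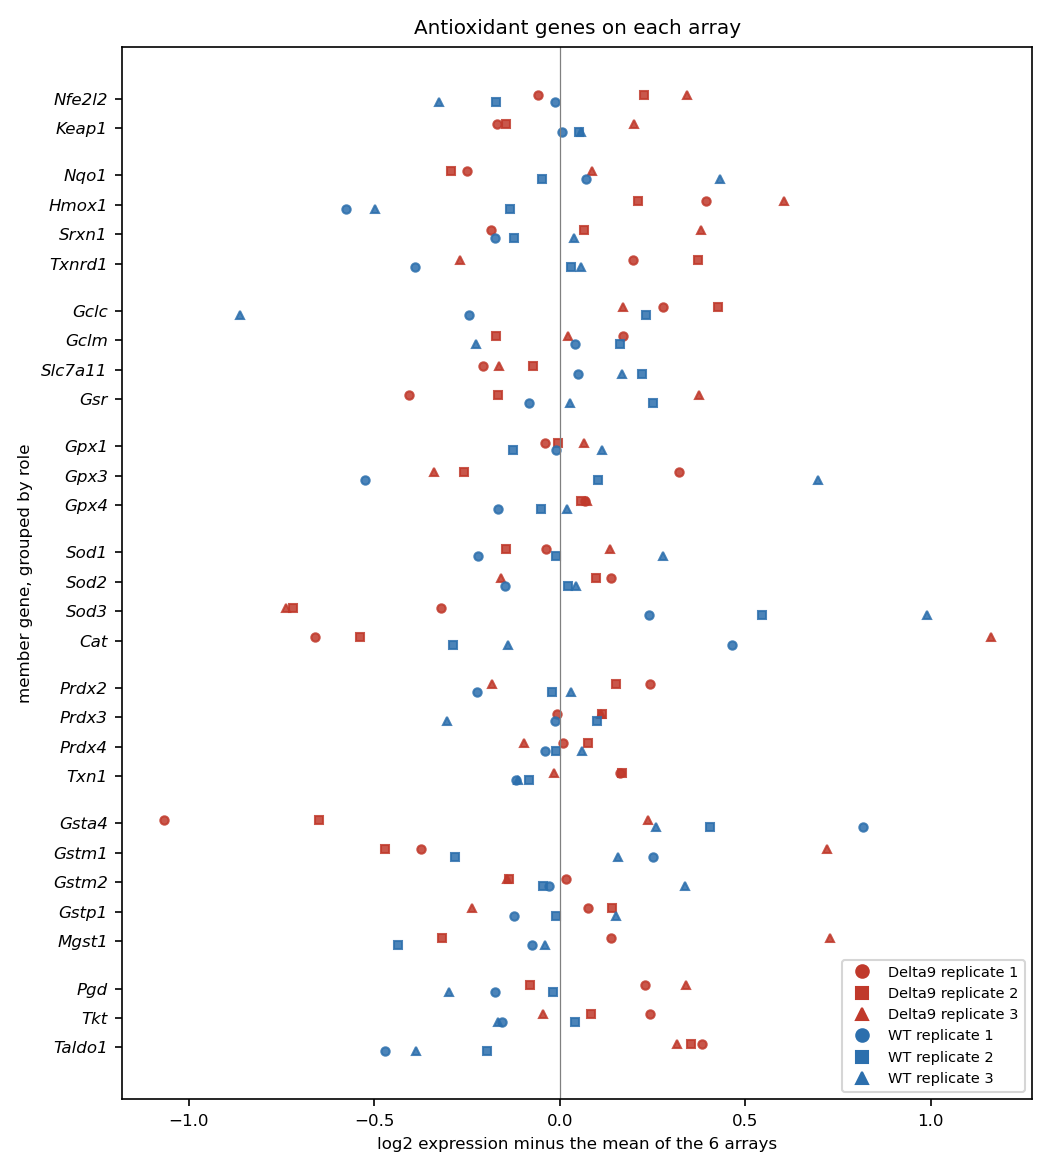
Log2 expression of the 29 measured members on each array, relative to the gene's mean over the 6 arrays (x axis); genes are grouped by role on the y axis, colours mark the group and marker shapes the replicate. Delta9 and WT points are separated for 7 genes, most widely for Sod3 and Taldo1, and Delta9 replicate 3 stands to the right of the other Delta9 samples for Cat, Gstm1, Gsta4 and Mgst1.

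Nfe2l2, which encodes NRF2, read 8.59, 8.87 and 8.99 in Delta9 and 8.63, 8.47 and 8.32 in WT. Delta9 replicate 1 lay just below WT replicate 1, and the other Delta9 samples lay above all of WT. The difference was 0.34 (SE 0.16, adjusted p 0.493), with a 95% confidence interval from -0.02 to 0.71. It was 0.17 (SE 0.17) with the average of the 18 macrophage markers added to the model as a covariate. A second, dim probe set differed by 0.41 (SE 0.17), from 3.00 in WT to 3.41 in Delta9.

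Keap1, the sensor that marks NRF2 for degradation, read 6.77, 6.79 and 7.14 in Delta9 and 6.95, 6.99 and 7.0 in WT. Its difference was -0.08 (SE 0.15, adjusted p 0.886; 95% interval -0.43 to 0.27). The WT samples were within a narrow band that the Delta9 samples straddled. Of 14 further regulators and partners of NRF2, 7 were higher and 7 lower, none at an unadjusted p under 0.05 (limma).

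Among the target enzymes, Hmox1 stood apart and Nqo1, Srxn1 and Txnrd1 did not. Hmox1, the inducible heme oxygenase that opens heme and releases iron, carbon monoxide and biliverdin, read 7.50, 7.31 and 7.71 in Delta9 and 6.52, 6.97 and 6.6 in WT. The lowest Delta9 sample was 0.34 above the highest WT sample. The difference was 0.81 (SE 0.18, adjusted p 0.222), with a 95% interval of 0.39 to 1.23. Hmox1 is also abundant in macrophages, and macrophage markers moved in the same direction between the groups. With their mean as a covariate, the difference was 0.75 (SE 0.23), and without WT replicate 3, the sample lowest in those markers, it was 0.76 (SE 0.21). WT replicate 1 had macrophage markers near the level of the Delta9 samples (0.39 relative to the 6-array mean, against 0.33 to 0.90) and the lowest Hmox1 value of the 6 arrays. The part of macrophage RNA in the Hmox1 difference was not tested.

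Nqo1, the quinone reductase that is a common readout of NRF2, was dim, at 3.61, 3.57 and 3.95 in Delta9 and 3.93, 3.81 and 4.29 in WT, where the arrays' medians were 3.36 to 3.43. It leaned the other way from Hmox1, with a difference of -0.30 (SE 0.17, adjusted p 0.575) and groups that overlapped. Srxn1, which repairs over-oxidised peroxiredoxins, read 6.55, 6.80 and 7.12 in Delta9 and 6.56, 6.61 and 6.78 in WT (difference 0.17, SE 0.18, adjusted p 0.764). Its 3 other probe sets differed by 0.16, 0.07 and -0.04. Txnrd1, the cytosolic thioredoxin reductase, read 7.79, 7.97 and 7.33 in Delta9 and 7.21, 7.63 and 7.65 in WT (difference 0.20, SE 0.21, adjusted p 0.773). The groups overlapped for both: Delta9 replicate 1 was level with the lowest WT sample for Srxn1, and Delta9 replicate 3 lay inside the WT range for Txnrd1. The 2 other Txnrd1 probe sets were dim and differed by -0.06 and 0.00.

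The genes of glutathione supply did not move as one. Gclc, the catalytic subunit of the rate-limiting enzyme of glutathione synthesis, read 6.4, 6.55 and 6.30 in Delta9 and 5.88, 6.36 and 5.26 in WT. The difference was 0.58 (SE 0.27, adjusted p 0.50), and WT replicate 3 was by far the lowest. Without that sample the difference was 0.30 (SE 0.20), and with the macrophage covariate it was 0.24 (SE 0.31). Without WT replicate 2 it was 0.84 (SE 0.24). A second Gclc probe set of similar brightness differed by 0.01 (SE 0.14), so the probe sets of this gene disagreed.

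Gclm, the modifier subunit of the same enzyme, read 6.34, 6.0 and 6.20 in Delta9 and 6.21, 6.34 and 5.95 in WT. Its difference was 0.01 (SE 0.17, adjusted p 0.985; 95% interval -0.38 to 0.40). The ranges of the groups were nearly the same. Slc7a11, the cystine importer of system xc-, read 2.70, 2.84 and 2.75 in Delta9 and 2.96, 3.13 and 3.08 in WT. Delta9 was lower in 3 of 3 (difference -0.29, SE 0.09, adjusted p 0.343), but every value was below the arrays' medians, and the gap between the groups was 0.12. With the mean of its 2 probe sets Slc7a11 differed by -0.18 (SE 0.08). Gsr, which recycles oxidised glutathione, ran from 5.68 to 6.46 in Delta9 and from 6.0 to 6.34 in WT (difference -0.13, SE 0.22, adjusted p 0.866).

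The enzymes that act on superoxide and peroxide were mostly bright, and among them Sod3 differed most. Sod3, the secreted superoxide dismutase that binds to heparan sulfate in the matrix, read 6.64, 6.24 and 6.22 in Delta9 and 7.20, 7.50 and 7.94 in WT. The highest Delta9 sample was 0.56 below the lowest WT sample, the widest such gap among the members. The difference was -1.18 (SE 0.23, adjusted p 0.185; 95% interval -1.71 to -0.65). It was -0.81 (SE 0.19) with the macrophage covariate and from -1.36 to -0.98 when single samples were left out. The fibroblast markers were lower in Delta9 as well, and their part in the differences of Sod3 and of Gsta4 was not tested. The dimmer Sod3 probe set differed by only -0.11 (SE 0.16) at 4.18 against 4.29, and with the mean of both probe sets the difference was -0.65 (SE 0.18). Sod3 passed the adjusted threshold with array weights (adjusted p 0.0378) and with the spike-in split as a block (adjusted p 0.0438), and in none of the other 15 alternatives, where the highest adjusted p was 0.605.

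Sod1, the cytosolic copper-zinc dismutase, and Sod2, the mitochondrial manganese dismutase, differed by -0.03 (SE 0.15) and 0.05 (SE 0.13). Their 95% intervals were -0.40 to 0.33 and -0.26 to 0.37. Cat, the peroxisomal catalase, had the widest spread within groups of the members: 7.67, 7.79 and 9.49 in Delta9 and 8.79, 8.04 and 8.19 in WT. Delta9 replicate 3 was the highest of the 6 arrays and the other Delta9 samples the lowest. The difference of -0.03 (SE 0.48) therefore rests on that sample; without it, it was -0.61 (SE 0.23, adjusted p 0.340). A second Cat probe set read 7.41, 7.38 and 8.77 in Delta9 and 8.05, 7.20 and 7.25 in WT, a difference of 0.35 (SE 0.41). On that probe set Delta9 replicate 3 was again the highest, but the other Delta9 samples lay inside the WT range.

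The glutathione peroxidases use glutathione to reduce peroxides. Gpx1, the general cytosolic form, ran from 10.70 to 10.81 in Delta9 and from 10.61 to 10.85 in WT, with a difference of 0.02 (SE 0.10; 95% interval -0.23 to 0.26). Gpx4, which reduces lipid peroxides within membranes and guards against ferroptosis, read 10.64, 10.63 and 10.64 in Delta9 and 10.40, 10.52 and 10.59 in WT. Its groups were separated by only 0.04, and the difference was 0.13 (SE 0.10, adjusted p 0.671). The second Gpx4 probe set differed by 0.08 (SE 0.10), and there the groups overlapped. Gpx3, the secreted plasma form, varied more within WT, from 9.73 to 10.95, than between the groups (difference -0.18, SE 0.32); leaving out WT replicate 1 gave -0.49, and leaving out WT replicate 3 gave 0.12.

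Peroxiredoxins reduce peroxide through a reactive cysteine that thioredoxin restores. Prdx2, Prdx3 and Prdx4, the cytosolic, mitochondrial and endoplasmic reticulum members measured, differed by 0.14 (SE 0.14), 0.15 (SE 0.15) and -0.01 (SE 0.11). The second Prdx2 probe set differed by -0.71 (SE 0.52), with overlapping groups. Txn1, cytosolic thioredoxin, read 12.37, 12.38 and 12.19 in Delta9 and 12.09, 12.12 and 12.09 in WT. Delta9 was higher in 3 of 3 by a small margin, 0.21 (SE 0.08, adjusted p 0.450) with a gap of 0.07. The dim second probe set differed by -0.17 (SE 0.18), and the mean of both gave 0.02 (SE 0.13).

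Gsta4, the glutathione S-transferase that conjugates the lipid peroxidation product 4-hydroxynonenal, read 6.16, 6.58 and 7.47 in Delta9 and 8.05, 7.64 and 7.49 in WT. Delta9 replicate 3 lay 0.02 below the lowest WT sample, and the other Delta9 samples were further below. The difference was -0.99 (SE 0.34, adjusted p 0.388; 95% interval -1.77 to -0.20). Without Delta9 replicate 3 it was -1.35 (SE 0.22, adjusted p 0.0722), and without Delta9 replicate 1 it was -0.70 (SE 0.31).

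The other transferases overlapped between the groups. Gstm1 read 7.92, 7.82 and 9.02 in Delta9 and 8.55, 8.01 and 8.45 in WT (difference -0.08, SE 0.33), or -0.46 without Delta9 replicate 3. Gstm1 and Gstm2 are close paralogs, and 2 of the 4 Gstm1 probe sets are of the _x_at type, the chosen one among them, which can also bind related transcripts. Gstm2 differed by -0.18 (SE 0.15), Gstp1, a pi-class enzyme, by -0.01 (SE 0.14), and Mgst1, a membrane-bound form, by 0.37 (SE 0.26), with 11.12 in Delta9 replicate 3 and 9.95 to 10.52 on the other arrays. Without Delta9 replicate 3, Mgst1 differed by 0.09.

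The 3 measured pentose phosphate enzymes all had higher means in Delta9. Taldo1, transaldolase of the non-oxidative branch, read 9.17, 9.14 and 9.10 in Delta9 and 8.32, 8.59 and 8.40 in WT. The Delta9 samples had an SD of 0.03, and the lowest was 0.51 above the highest WT sample. The difference was 0.70 (SE 0.12, adjusted p 0.161; 95% interval 0.41 to 0.99). It ranged from 0.62 to 0.78 over 17 alternatives and was 0.72 (SE 0.15) with the macrophage covariate. It passed the adjusted threshold in 1 of them, the spike-in split as a block (adjusted p 0.0306). Taldo1 had 1 probe set only, so no second one could be read.

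Pgd, which makes NADPH in the oxidative branch, read 9.76, 9.45 and 9.87 in Delta9 and 9.36, 9.51 and 9.23 in WT, with Delta9 replicate 2 inside the WT range (difference 0.33, SE 0.15, adjusted p 0.493). Its 4 probe sets differed by 0.33, 0.33, 0.22 and 0.49, and the groups did not overlap on the last 3 of these. The gaps there were 0.06, 0.001 and 0.32. All but the last are of the _x_at type, the chosen one among them. Tkt, transketolase, differed by 0.19 (SE 0.12, adjusted p 0.619), at 10.75 ± 0.14 in Delta9 and 10.56 ± 0.12 in WT (SD, n = 3).

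**Figure D2:**
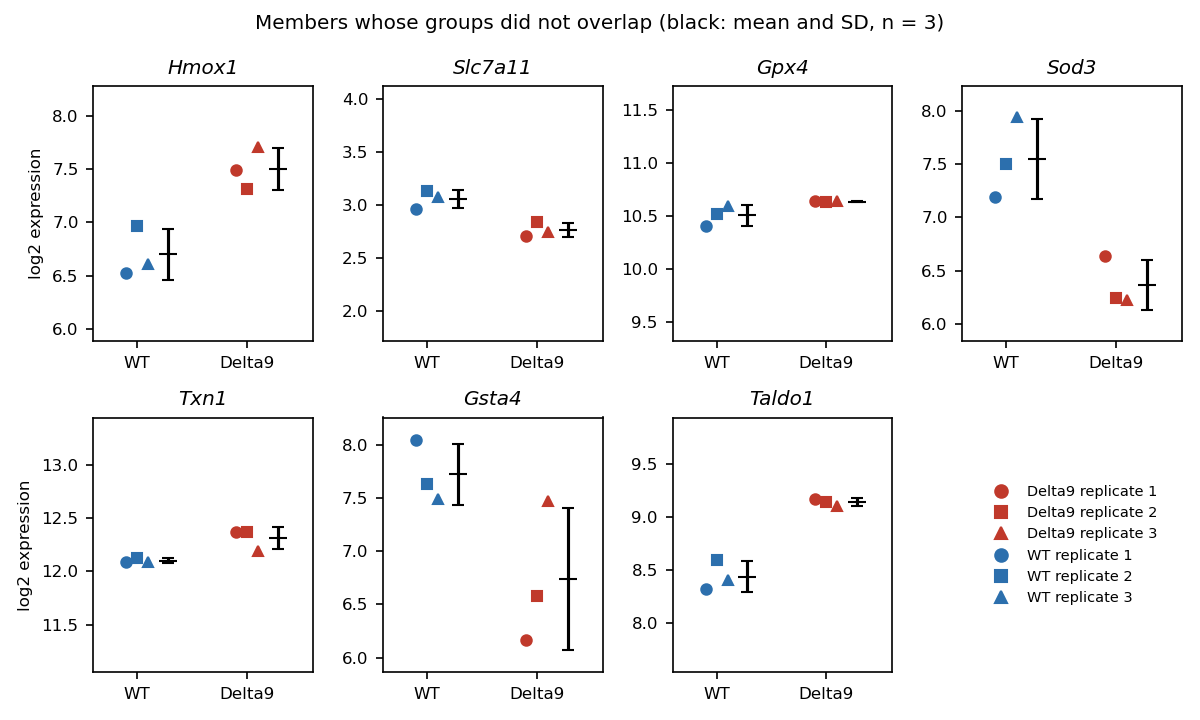
Log2 expression (y axis, each panel spanning the same range of 2.4 log2) of the 7 members whose groups did not overlap, by group (x axis); points are samples and black bars the mean and SD of 3. The separation is wide for Sod3, Taldo1 and Hmox1, and only 0.02, 0.04 and 0.07 log2 for Gsta4, Gpx4 and Txn1.

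**Figure D3:**
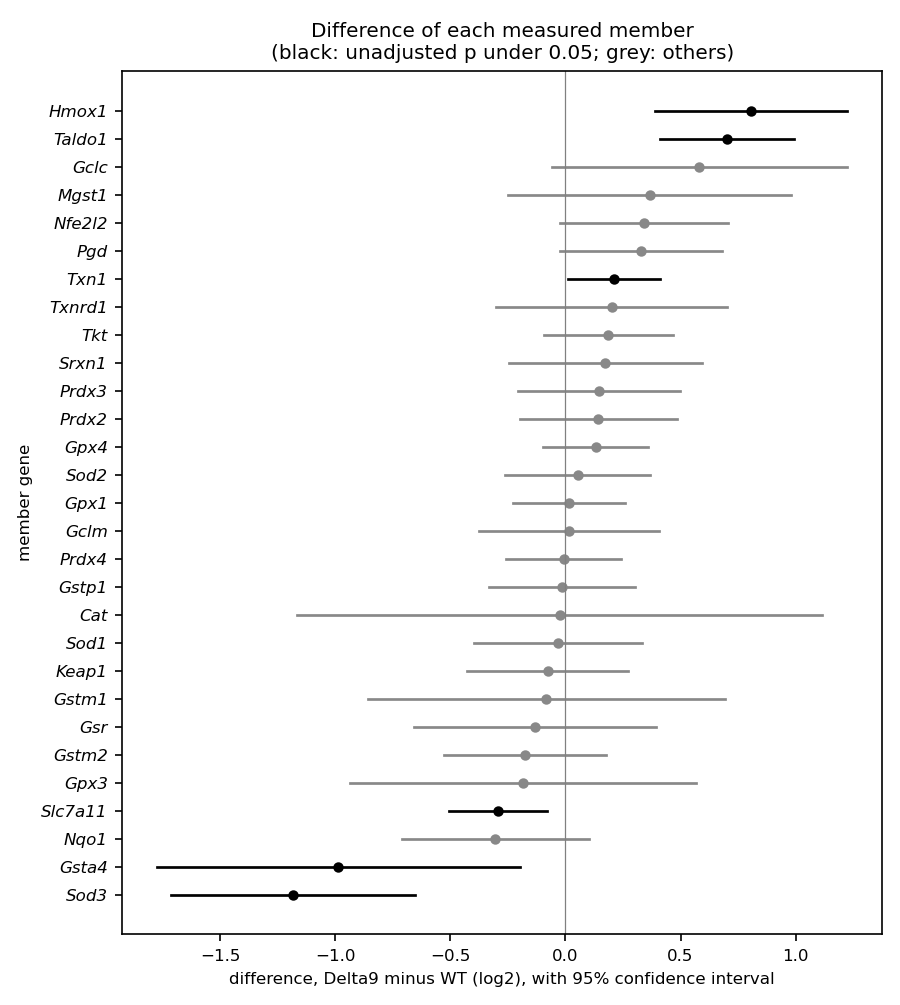
Difference in log2 expression, Delta9 minus WT (x axis), of the 29 measured members (y axis) with 95% confidence intervals from the model over all genes; black marks an unadjusted p under 0.05. Intervals of 23 members include 0, and those of Cat, Gsta4, Gstm1 and Gpx3 are the widest.

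Of the 7 measured members printed above with the response element core, 6 had higher means in Delta9, from 0.01 for Gclm to 0.37 for Mgst1, and Sod1 differed by -0.03. The groups overlapped for all 7, and none had an unadjusted p under 0.05 (limma). Over the 29 members 16 had higher means, as did 46.8% of all genes. Of the 7 members whose groups did not overlap, Taldo1, Txn1, Gpx4 and Slc7a11 had windows without the core, which says only that these letters are not in those windows. No window was available for Hmox1, Sod3 and Gsta4.

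A further 144 genes of the same processes had been listed, and 132 of them were measured. None passed the adjusted threshold (limma; lowest adjusted p 0.222). By the unadjusted p (under 0.05), 14 had higher and 5 had lower values, 14.4% in all, against 10.6% of all genes. Their median difference was 0.05.

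Of 27 other NRF2 target genes, 6 had an unadjusted p under 0.05 (limma), all with higher values. This is 22.2% of the list, against 10.6% of all genes in either direction and 4.54% on the higher side. Blvra, the biliverdin reductase that follows heme oxygenase, read 8.84, 9.00 and 9.34 in Delta9 and 8.52, 8.33 and 7.77 in WT, a difference of 0.85 (SE 0.23, adjusted p 0.292). Slc40a1, the iron exporter ferroportin, differed by 1.64 (SE 0.59), with 7.21 in Delta9 replicate 3 and 3.47 in WT replicate 3 at the ends of its range. The drug exporter Abcc3 differed by 0.56 (SE 0.18) and the reductase Ptgr1 by 0.35 (SE 0.13). Fth1, the ferritin heavy chain that stores iron, differed by 0.38 (SE 0.18) and overlapped; it is named here after its value was seen, as the storage step beside Slc40a1.

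Blvra, Slc40a1 and Fth1 were lowest in WT replicate 3 and highest in Delta9 replicate 3, as were the mean of the macrophage markers and the 18S signal. Over all genes the arrays of these samples were the least alike of all pairs (correlation 0.963). How many of all genes had the same order was not counted. Hmox1 was lowest in WT replicate 1, and the heme transporter Slc48a1, named after its value was seen, was highest in WT replicate 3. Single markers varied, and Msr1 and Fcgr1 were highest in Delta9 replicate 1. With the macrophage covariate, Blvra differed by 0.43 (SE 0.16), Slc40a1 by 0.75 (SE 0.60) and Fth1 by 0.02 (SE 0.11), while Hmox1 stayed at 0.75. Abcc3 and Ptgr1 then differed by 0.50 (SE 0.24) and 0.48 (SE 0.15). Akr1b8 and Mt1, named after their values were seen, went from 0.41 to 0.60 (SE 0.18) and from 0.59 to 0.11 (SE 0.15). Beyond that covariate, the part of macrophage RNA in these differences was not tested, nor was that of RNA quality.

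**Figure D4:**
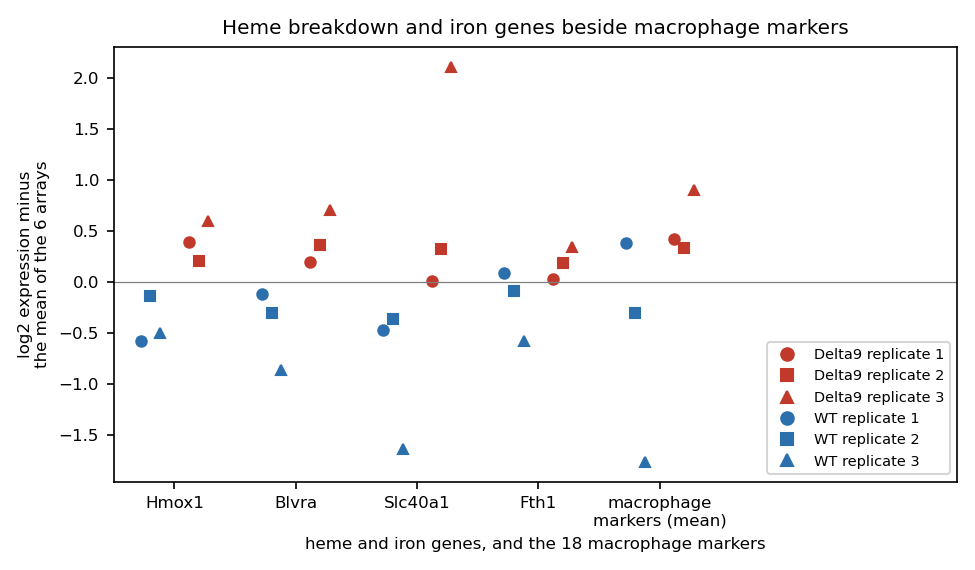
Log2 expression relative to the mean of the 6 arrays (y axis) for 4 heme and iron genes and for the mean of 18 macrophage markers (x axis); colours mark the group, with WT to the left of each label, and shapes the replicate. WT replicate 3 is lowest and Delta9 replicate 3 highest for Blvra, Slc40a1, Fth1 and the mean of the macrophage markers. WT replicate 1 is lowest for Hmox1 but near the Delta9 samples for the markers.

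Of 34 other glutathione and thioredoxin genes, 4 had an unadjusted p under 0.05, 2 in each direction, and this share of 11.8% was near the 10.6% of all genes. Glrx, glutaredoxin 1, which removes glutathione from proteins, read 6.28, 6.38 and 6.27 in Delta9 and 5.82, 5.60 and 5.68 in WT. Delta9 was higher in 3 of 3, by 0.61 (SE 0.13, adjusted p 0.222), and by 0.58 (SE 0.16) with the macrophage covariate. Sesn3, a stress-induced sestrin under FoxO control, read 6.03, 6.30 and 6.78 in Delta9 and 7.59, 7.20 and 7.35 in WT. It was lower in 3 of 3, by -1.01 (SE 0.22, adjusted p 0.222), and passed with the spike-in split as a block (adjusted p 0.0303). The methionine sulfoxide reductases went both ways, with Msrb2 at 0.46 (SE 0.16) and Msrb3 at -0.56 (SE 0.21).

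Of 19 other glutathione S-transferases, 2 had an unadjusted p under 0.05 (limma), 10.5% against 10.6% of all genes. Gsto1, an omega-class enzyme, was higher by 1.01 (SE 0.31, adjusted p 0.352) and Gstt2, a theta-class enzyme, by 0.75 (SE 0.26, adjusted p 0.389). Delta9 lay above WT in 3 of 3 for both. With the macrophage covariate their differences were larger, 1.27 (SE 0.40) and 1.2 (SE 0.21). Among 19 other NADPH genes 1 was at an unadjusted p under 0.05 (5.26%), the mitochondrial folate enzyme Aldh1l2 at -0.55 (SE 0.17, adjusted p 0.343).

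Of 19 measured enzymes that make oxidants, or their subunits, 6 had an unadjusted p under 0.05 (limma), 4 with higher and 2 with lower values. These are 21.1% and 10.5% of the list, against 4.54% and 6.06% of all genes. Rac2, a GTPase of the phagocyte NADPH oxidase, differed by 1.58 (SE 0.37, adjusted p 0.241), and Xdh, xanthine dehydrogenase, by 1.11 (SE 0.37, adjusted p 0.380). On the lower side were the amine oxidase Aoc3 at -0.88 (SE 0.24, adjusted p 0.297) and Nos2, the inducible nitric oxide synthase, at -0.44 (SE 0.14, adjusted p 0.362). Nos2 was dim, at 2.84 to 3.56. The oxidase subunits Ncf4, Cybb, Cyba and Ncf1, named after their values were seen, differed by 1.41, 0.84, 0.79 and 1.09. These oxidase genes are expressed in macrophages, and with the macrophage covariate Rac2 differed by 0.95 (SE 0.32). The 4 subunits then differed by 0.65 (SE 0.51), -0.42 (SE 0.41), -0.07 (SE 0.24) and 0.06 (SE 0.18). The part of macrophage RNA in the differences of these oxidase genes was not tested.

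**Figure D5:**
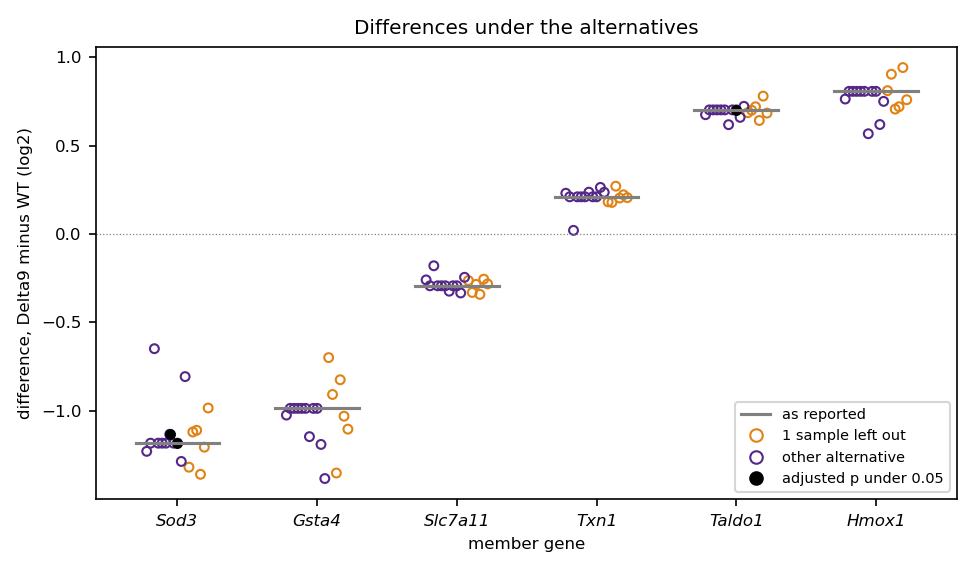
Difference in log2 expression, Delta9 minus WT (y axis), of the 6 members with an unadjusted p under 0.05 (x axis), as reported (grey line) and under 17 alternatives (circles; orange with 1 sample left out, black where the adjusted p was under 0.05). All 6 kept their sign; Sod3 passed in 2 alternatives and Taldo1 in 1, and Txn1 reached 0.02 with the mean of its probe sets.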

How the data were processed

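The series matrix holds log2 values that the authors deposited for 45101 probe sets on 6 arrays; the log2 base was inferred from their range, and how probes were summarised and normalized is not stated in the labels. The arrays' medians were 3.36 to 3.43. Leaving out 64 control probe sets, 34945 had 1 gene symbol in the platform annotation, 932 had several and 9160 are unnamed here. With 3 arrays in each group, precision is limited by their number.

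The probe set of the highest mean stood for each of 18193 genes. Delta9 and WT were compared in limma 3.58.1 (R 4.3.3; lmFit, eBayes with a variance trend), with Benjamini-Hochberg adjustment over all genes; other probe sets were fitted over all 45037. The model was tested on simulated data with 200 changed genes. It recovered 75% of changes of 1 log2 and 97% of changes of 2 log2, and 6.01% of its calls were false. Of the members, only Sod3 differed by more than 1 log2. Alternatives were another normalization, filters, probe set rules, variance settings, array weights, blocks, a covariate and leaving out samples. Figures used matplotlib 3.10.9.

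The members, lists, spike-in split and covariate were chosen with earlier results of these data known. Described in full were Nfe2l2, Keap1, 7 target and glutathione genes, and every member with an unadjusted p under 0.05 or separated groups; in other lists, up to 4 genes of lowest unadjusted p among those under 0.05 were named, and genes named after their values were seen are marked so.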

Additional observations from a re-analysis of the deposited data

How the results depend on the processing

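Over all genes 11 were called. The count was 139 with array weights, 149 with the spike-in split as a block, 61 when only the 4 arrays with more spike-in signal were used, 2 with the macrophage covariate, and 1 to 81 with single samples left out (81 without Delta9 replicate 3, 1 without WT replicate 2, 2 without Delta9 replicate 1, 5 without Delta9 replicate 2 or WT replicate 1, 4 without WT replicate 3). Of the members, 0 were called, against 1 with array weights (Sod3), 2 with the spike-in split as a block (Sod3 and Taldo1) and 0 in the other 15 alternatives, single samples left out included. Members at an unadjusted p under 0.05 numbered 6, and 4 to 9 over the alternatives. The share of all genes at that p was 10.6%, and it ran from 7.41% to 20.01% over the alternatives. It was highest with array weights, where 7 members were at that p, and 13.65% without Delta9 replicate 3, where 9 were. The members' median difference of 0.02 was 0.17 with the macrophage covariate, and 0.04 to 0.10 with single samples left out. Over all genes the median was 0.02 with that covariate, and -0.04 to 0.005 with single samples left out.

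With the replicate number as a block, 0 genes were called (limma; 7.41% of all genes had an unadjusted p under 0.05). Same-numbered samples did not deviate together (correlations of -0.40, 0.17 and -0.43 for numbers 1, 2 and 3), so the numbers were not taken as pairs. Across numbers, Delta9 replicate 3 and WT replicate 1, the arrays of low spike-in signal, deviated together most (0.59); their values correlated at 0.987, and those of Delta9 replicate 3 with Delta9 replicates 1 and 2 at 0.978 and 0.979. The members with 1 probe set, 9 of 29, have no second reading, and for 10 of the other 20 the probe sets differed in sign. Dim genes such as Nqo1, just above the arrays' medians, and Slc7a11, below them, are weakly measured, and the table holds no detection calls.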
